A study of Homo sapiens with 5 samples.

Results

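The 1000 strongest H3K27ac peaks of unstimulated HCT116 cells were described here, chosen as the peaks on chromosomes 1 to 22 and X with the highest mean signal in the unstimulated group. They were taken from 20036 peaks on these chromosomes, of 20087 in the whole table. HCT116 is a human colorectal carcinoma line, and the cells used were a derivative that carries the auxin receptor osTIR1 under a CMV promoter and a RAD21 gene tagged with a degron, so the cohesin subunit RAD21 is made from an engineered allele in every library. All cells, controls included, were kept in 0.1% DMSO for 6 h. IFN-β was then given at 1000 unit/ml for 1 h in 2 libraries, and 2 mock libraries got none. The labels place the IFN-β libraries at 60 min and the mock libraries at 0 min, so the cytokine and the additional culture time cannot be told apart. An input library, labelled mock at 60 min, has no value of its own in the table. Whether the 2 libraries of a group came from separate cultures is not given in the sources used here.

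Histone H3 acetylated at lysine 27 (H3K27ac) is laid down by the acetyltransferases p300 and CBP around active promoters and enhancers. Promoters of housekeeping genes, many of them in CpG islands, carry it in most cell types, while distal regions that carry it differ widely between cell types. Type I interferons such as IFN-β act through JAK kinases and STAT and IRF factors to switch on antiviral genes.

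The level of a peak is the authors' mean over the 2 libraries of a group, as the log2 of normalized reads in the peak. The table gives no value per library, so no SD between replicates can be attached to a level. The members ranged from 6.86 to 8.45 in the mock group, with a median of 7.12, which is 116.2 to 349.7 normalized reads with a median of 139.1. The median over all peaks was 5.04, or 32.9 reads. The members together held 17.2% of the 876625 normalized reads summed over all peaks in the mock group, and 15.95% of the 540112 in the IFN-β group. Since the rule ranked the peaks by the mock level, these levels only describe the choice. The edge of the list cuts through ties: 27 peaks had a level of 6.86, of which 15 were members. The last members inside were at the starts of EIF3E, NIBAN2 and HNRNPF, and the first peaks outside lay by GPR137 and BAD, all at 6.86. Their IFN-β levels were 6.11, 6.01 and 5.95 inside, and 6.22 and 6.06 outside.

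**Figure D1:**
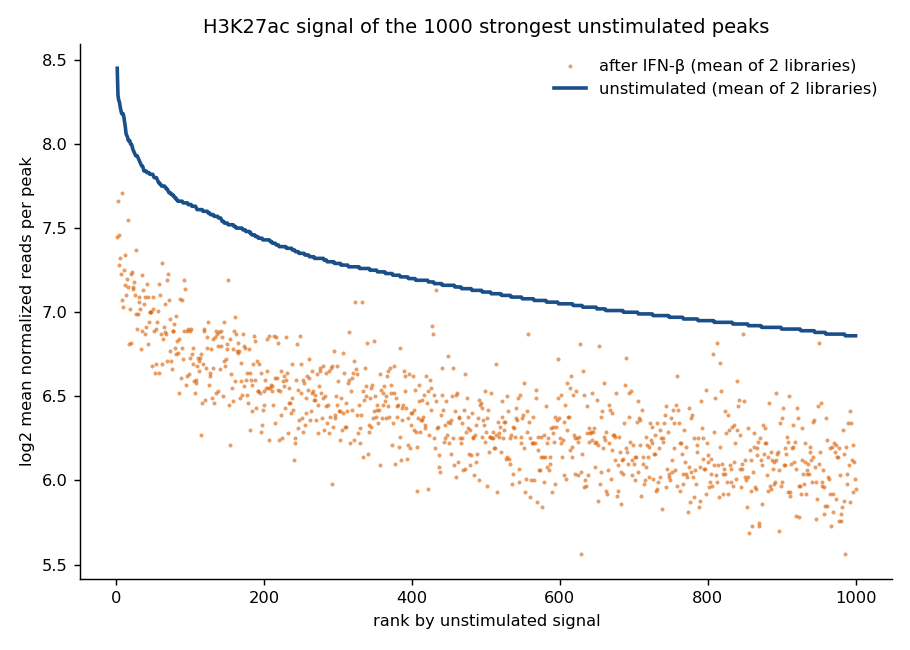
Mock level (line) and IFN-β level (points) of each of the 1000 members, as log2 mean normalized reads per peak, against the rank by mock level. The line drops from 8.45 to 6.86, and every point lies below the line, between 5.56 and 7.71.

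Stretches of some of the members are shown first, in lower case with the words that were searched in capitals, to show the contrast between distal members and those at start sites. All are the + strand of GRCh38, read from the reference. The first is the centre of the strongest member, in an intron of TCF7L2. The KITLG stretch surrounds an AP-1 word in a high-ranking member that lies over 5 kb from every annotated transcript start. This stretch is at the edge of its peak, not at the centre. The NANOS3 stretch is from the member with the most AP-1 words among those over 5 kb from every transcript start. In these 3, the capitals mark AP-1 (TGACTCA), TCF/LEF (ATCAAAG) and GC box (GGGCGG) words on either strand.
TCF7L2 intron, chr10:112952286-112952585: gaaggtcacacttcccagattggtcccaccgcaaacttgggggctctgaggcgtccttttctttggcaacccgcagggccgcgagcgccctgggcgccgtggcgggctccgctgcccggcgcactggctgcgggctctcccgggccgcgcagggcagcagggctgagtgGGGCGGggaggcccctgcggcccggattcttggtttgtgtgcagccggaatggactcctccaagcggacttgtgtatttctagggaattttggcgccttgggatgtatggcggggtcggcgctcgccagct
Distal, nearest coding gene KITLG, chr12:88934563-88934762: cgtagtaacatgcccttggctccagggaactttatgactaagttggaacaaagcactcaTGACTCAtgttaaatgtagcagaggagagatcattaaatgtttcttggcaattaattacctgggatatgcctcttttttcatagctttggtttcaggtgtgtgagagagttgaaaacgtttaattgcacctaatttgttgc
Distal, nearest coding gene NANOS3, chr19:13851297-13851596: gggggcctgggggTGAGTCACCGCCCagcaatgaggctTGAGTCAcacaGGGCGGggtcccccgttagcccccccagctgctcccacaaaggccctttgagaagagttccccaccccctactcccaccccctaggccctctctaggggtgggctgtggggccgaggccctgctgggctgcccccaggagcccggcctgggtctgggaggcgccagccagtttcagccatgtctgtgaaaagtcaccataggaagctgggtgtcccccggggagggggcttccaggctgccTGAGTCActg

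Next are the 200 bases upstream of the annotated start of ARHGDIA, SOCS6 and YAP1. The members there are among the highest within 1 kb of a gene's start for which these bases lie inside the central 1000 bp and overlap no UTR. Here the capitals mark GC box, CCAAT, ETS (CCGGAAG), NRF1 part (GCGCATG), YY1 part (ATGGCGG) and E-box (CACGTG) words on either strand.
ARHGDIA, chr17:81871379-81871578: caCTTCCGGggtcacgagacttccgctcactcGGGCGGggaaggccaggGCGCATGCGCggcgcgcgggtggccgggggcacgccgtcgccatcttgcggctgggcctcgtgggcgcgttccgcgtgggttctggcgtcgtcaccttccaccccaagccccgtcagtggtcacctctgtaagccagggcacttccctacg
SOCS6, chr18:70288845-70289044: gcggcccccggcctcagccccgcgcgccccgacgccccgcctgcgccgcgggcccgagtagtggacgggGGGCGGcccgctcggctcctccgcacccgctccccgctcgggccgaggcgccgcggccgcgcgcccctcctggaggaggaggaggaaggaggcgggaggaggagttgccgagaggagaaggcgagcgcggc
YAP1, chr11:102110247-102110446: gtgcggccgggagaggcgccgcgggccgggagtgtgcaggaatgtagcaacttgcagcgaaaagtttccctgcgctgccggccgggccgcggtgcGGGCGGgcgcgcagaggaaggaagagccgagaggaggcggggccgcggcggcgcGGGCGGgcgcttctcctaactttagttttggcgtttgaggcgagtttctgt

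The distal stretch named after KITLG holds 39.0% GC and an AP-1 word. The NANOS3 stretch, with 68.0% GC, holds 3 AP-1 words and 2 GC boxes, one of which abuts an AP-1 word. The 3 upstream stretches hold between 69.5% and 82.0% GC, and in the ARHGDIA stretch the NRF1 part occurs on both strands in overlap. No AP-1 or TCF/LEF word was found in the 300 bases printed from TCF7L2, which says only that these letters are not in this window.

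The strongest member, chr10:112951935-112952935, lay in an intron of TCF7L2, the transcription factor that pairs with β-catenin at Wnt target genes, with its centre 1519 bp from the closest transcript start of that gene. Its level was 8.45 in the mock group and 7.45 after IFN-β. It was the highest of all peaks without IFN-β and the sixth highest with it.
The second, chr17:59784898-59785898, lay in an intron of VMP1, a gene of autophagy whose transcription unit leads into the microRNA gene MIR21. It was 55868 bp from MIR21, and its level was 8.29 in the mock group and 7.66 after IFN-β. Of its 31-mers, 19.9% occur more than once in the reference. Another member in VMP1, 3026 bp from MIR21 (chr17:59837740-59838740), had levels of 7.66 and 7.07.
The cytoskeleton was represented near the top by ACTG1, which encodes cytoplasmic γ-actin, with 8.26 in the mock group and 7.46 after IFN-β, and by RHOF, a small GTPase, with 8.25 and 7.28. ARHGDIA, an inhibitor that holds small GTPases in the cytosol, had 8.16 and 7.25. All 3 peaks were within 1 kb of a transcript start of their gene.
LINC00963, a long noncoding RNA gene on chromosome 9, had levels of 8.22 and 7.32. HMGA2, an AT-hook chromatin protein that is mainly expressed in embryonic tissue and in tumours, had 8.20 and 7.23, and the peak was 290 bp downstream of a transcript start. ANP32B, a histone chaperone, had 8.18 and 7.07, and BAHCC1, a chromatin protein, had 8.18 and 7.03.
An intron of PDP1, which encodes a phosphatase that activates pyruvate dehydrogenase, held a member with 8.18 in the mock group and 7.71 after IFN-β, the second highest IFN-β level among all peaks. MFSD3 (8.13 and 7.16) and FAM83H, a regulator of the keratin cytoskeleton (8.10 and 7.34), followed on chromosome 8. The list of the 15 highest ends with HOXB7, a homeobox gene (8.06 and 7.10), PCBP1, an RNA-binding protein (8.05 and 7.20), and a member 1015 bp upstream of KAZALD1 (8.04 and 7.15). Just below were SOCS6, a suppressor of cytokine signalling (8.02 and 7.02), and YAP1, the Hippo pathway coactivator that binds TEAD factors (8.0 and 7.23), whose upstream bases are printed above. Of the 10 highest members by mock level, 5 were also among the 10 highest peaks of the IFN-β group.

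The position of the members relative to start sites depended on which starts were counted. With the annotated start of each protein-coding gene (GENCODE release 44), 559 members (55.9%, exact binomial 95% interval 52.8 to 59.0) had their centre within 1 kb of a start, 323 (32.3%, 29.4 to 35.3) were over 5 kb from every such start, and 118 lay between. The shares over all peaks were 43.6% and 47.4%, and over the next 1000 peaks by rank 67.2% and 24.9%. The intervals cover counting error over peaks only. Several members that count as distal on this basis lay at an internal promoter: 78 of the 323 were within 1 kb of a transcript start of a protein-coding gene, among them ACTG1, HNRNPF and NIBAN2. Others were at the starts of noncoding genes, such as MALAT1 (7.97 in the mock group and 7.14 after IFN-β) and OLMALINC (7.99 and 7.24). With every transcript start counted, 720 members (72.0%) were within 1 kb of a protein-coding transcript start, 158 (15.8%) were over 5 kb from every transcript start of any gene, and 122 were in neither class. These 122 include members at noncoding starts such as MALAT1 and OLMALINC, since 79.2% of the members were within 1 kb of a transcript start of any gene, coding or not. On this basis 56.5% and 24.9% of all peaks and 83.2% and 9.6% of the next 1000 fell in the first and the second class.

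The share of peaks at start sites was thus lower among the 1000 strongest peaks than in the next 1000, on either basis, and it declined again further down the ranking. Among the 100 strongest, 63 were within 1 kb of a protein-coding transcript start and 16 were over 5 kb from every transcript start. The lowest set of 1000 peaks, ranks 19001 to 20000, had 25% within 1 kb of a start. No test was made of these shares, since the ranking used the mock level and neighbouring peaks are not independent.

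**Figure D2:**
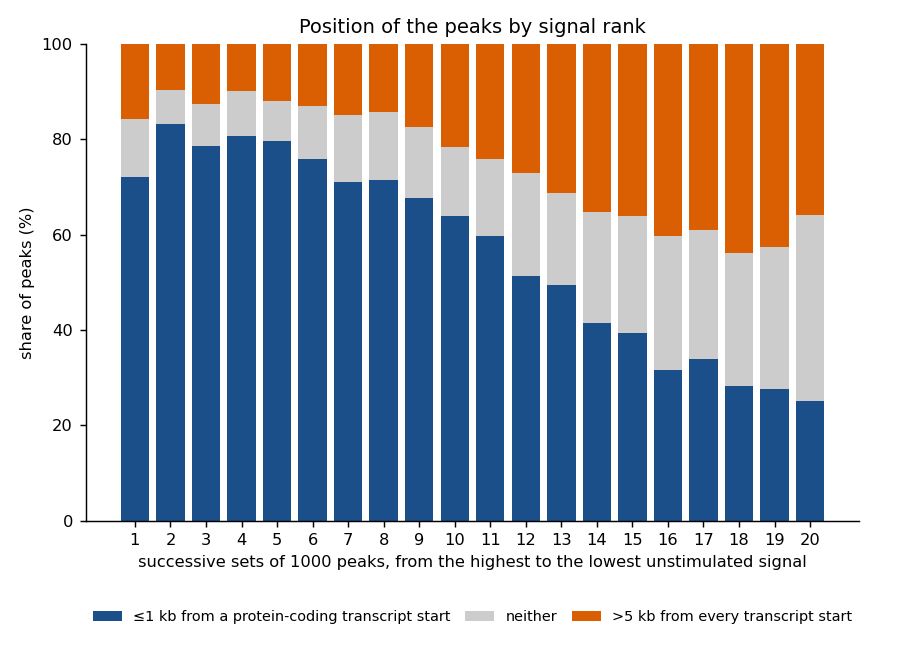
Share (%) of each successive set of 1000 peaks by mock level whose centre was within 1 kb of a protein-coding transcript start, over 5 kb from every transcript start, or in neither class. The first set, the members, has 72.0% and 15.8% in the first and second class, and the second set has 83.2% and 9.6%.

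The centre of 40.3% of the members lay in an intron, of 19.5% in a UTR, of 10.7% in a coding exon, of 9.5% in an exon of a noncoding gene and of 20% outside any gene. Over all peaks these shares were 47.1%, 16.5%, 8.34%, 6.60% and 21.4%. The width of a peak bears on its read number, and 92.0% of the members were exactly 1000 bp wide against 91.4% of all peaks. The widest member, and the widest peak on these chromosomes, covered 3795 bp at CKS2, a small protein that binds cyclin-dependent kinases, with levels of 7.84 and 7.09. P4HB (1997 bp wide, 7.87 and 7.22) and GRIN2D (2648 bp, 7.06 and 6.36) were the other members of the 3 widest. Per kb of width, the level at CKS2 was 5.92 and that at P4HB 6.87. More than 10% repeated 31-mers were found in 86 members (8.6%), in 9.6% of the next 1000 peaks by rank and in 22.8% of all peaks.

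The distal members over 5 kb from every transcript start lay mostly within genes, with 89 of the 158 in an intron and 62 outside genes. After VMP1 and PDP1, the highest was in an intron of VTI1A, which encodes a SNARE protein of vesicle fusion, with levels of 7.96 in the mock group and 7.15 after IFN-β (chr10:112490346-112491346). A member in an intron of a noncoding gene 24048 bp from GPR15, a chemoattractant receptor, had 7.93 and 6.99, with 24.4% repeated 31-mers. A gene-poor part of chromosome 12 held a member 354211 bp from KITLG, the ligand of the receptor KIT, with 7.86 and 7.13. An intron of PCDH7, a protocadherin, held a member with 7.83 and 7.09, and 4 further distal members in the same gene had mock levels of 7.66, 7.50, 7.45 and 7.08. A member in IRAG1 had 7.82 and 7.0, and one nearest to IRS1, an adaptor of the insulin receptor, had 7.71 and 7.07 from a distance of 147007 bp. The member nearest to BTC, which encodes the EGF family ligand betacellulin, was 170343 bp away with 7.75 and 7.29, and that nearest to CYTH4 had 7.72 and 7.23 with 24.2% repeated 31-mers. Naming a distal peak after the nearest coding gene says nothing of the gene it acts on. In SYTL3, a member 80163 bp from the gene's start had 8.02 and 7.55, the fourth highest IFN-β level, but it lay 3374 bp from a pseudogene and held 31.3% repeated 31-mers.

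The base composition of the members differed by position. The median GC content within 500 bp of the centre was 66.8% over all members, 66.3% over the next 1000 peaks by rank and 58.1% over all peaks. Among members within 1 kb of a protein-coding transcript start it was 69.4%, against 67.4% in the next 1000 and 64.2% for all such peaks. Among the 158 distal members it was 42.4%, against 46.5% in the next 1000 and 44.8% for all such peaks. The ratio of observed to expected CpG had medians of 0.851 and 0.782 at starts, and of 0.230 and 0.239 in distal members and all distal peaks.
Of the 12 words searched on either strand within 500 bp of the centre, the GC box bound by SP factors was in 96% of the members at starts and in 90.8% of all such peaks. The YY1 part was in 32.9% and 22.2%, CCAAT, the word of the factor NF-Y, in 50.4% and 57.9%, and ETS in 29.9% and 30.0%. The NRF1 part was in 13.3% and 12.2%, CRE (TGACGTC) in 8.75% and 8.49%, and E-box in 25% and 21.1%. AP-1 words, bound by FOS and JUN dimers, were in 11.4% and 11.2%.
In the 323 members over 5 kb from every protein-coding gene's start, AP-1 words were in 39.9%, against 44.2% of all 9506 such peaks. Within 250 bp of the centre they were in 18.89% of these members, with no share over all such peaks given here to set beside it. Among the 158 members that are also over 5 kb from every transcript start, a definition added after the data were seen, AP-1 words were in 52.5%, against 54.0% of all 4990 distal peaks, and 31 members (19.6%) held more than 1, against 15.6%. TEAD (GGAATG) was in 43.7% and 46.5%, TCF/LEF in 13.3% and 14.5%, the HNF4 part (CAAAGTC) in 15.8% and 13.8%, and TATAAA in 51.9% and 51.2%. Short words vary with base composition, and a match does not show that a factor was bound.

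The members were unevenly spread over the chromosomes. Over all chromosomes 4.99% of the peaks were members. Chromosome 17 had 133 of 1286 (10.3%, exact binomial 95% interval 8.73 to 12.1) and chromosome 8 had 76 of 784 (9.69%, 7.71 to 12), so both together held 209 of the 1000 members. Chromosome 10 followed with 66 of 915 (7.21%), chromosome 22 with 6.31% and chromosome 20 with 6.12%. At the other end, chromosome 21 had 5 of 208 (2.40%), and chromosome X had 0 of 547. Were the peaks independent draws, this would allow a share of up to 0.548% at 3 counts of the total and of up to 0.672% by the exact binomial 95% interval. All peaks were counted and neighbours are not independent, so these limits and intervals do not measure the spread between libraries. The highest peak on chromosome X had a mock level of 6.76 and ranked 1274th, and the median over all peaks there was 4.40, the lowest of the 23 chromosomes, while the highest medians were 5.28 on chromosomes 16 and 17.
Within chromosomes 8, 10 and 17 the share of members was higher in the outer part of the long arm than in the rest of the chromosome. On chromosome 8, 3.41% of the 411 peaks below 90 Mb were members and 16.6% of the 373 above it, with median mock levels over all peaks of 4.99 and 5.51. On chromosome 10 the shares were 4.81% below 100 Mb and 13.0% above it, with medians of 4.92 and 5.29. On chromosome 17 they were 6.70% below 50 Mb and 15.6% above it, with medians of 5.08 and 5.62. These positions were set after the values were seen, and the splits are a description. The share of all peaks at protein-coding transcript starts, above and below the split, was 49.6% and 52.8% on chromosome 8. It was 49.6% and 48.5% on chromosome 10, and 51.4% and 58.3% on chromosome 17. The part of this share in the result was not tested. The amount of DNA recovered per chromosome could not be set beside these levels, since the table holds no value for the input library, and its part in the result was not tested.

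**Figure D3:**
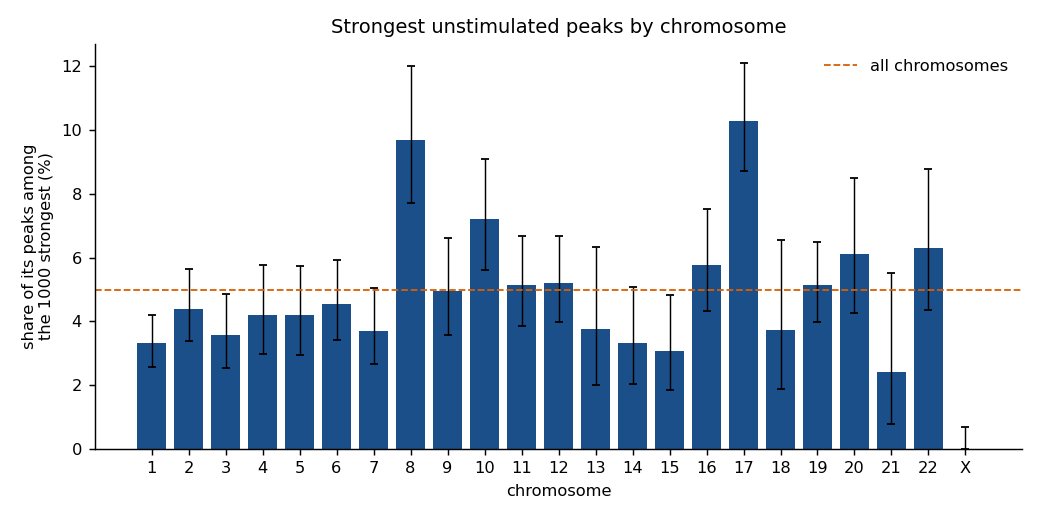
Share (%) of each chromosome's peaks that were members, with exact binomial 95% intervals over peaks as error bars and the share over all chromosomes as a dashed line at 4.99%. Chromosomes 8 and 17 reach 9.69% and 10.3%, and chromosome X has no member.

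The densest megabase, 81 to 82 Mb on chromosome 17, held 18 members among 51 peaks. Next were 75 to 76 Mb on the same chromosome with 14 of 49, 144 to 145 Mb on chromosome 8 with 14 of 39, and 129 to 130 Mb on chromosome 9 with 11 of 50.
Members whose centres lay within about 13 kb of the next were joined into loci. This gave 871 single members, 57 pairs and 5 loci of 3. The first was that of MFSD3, LRRC24 and RECQL4 on chromosome 8 (chr8:144508501-144523391), with mock levels of 6.98 to 8.13. RECQL4 is a DNA helicase. The second was LINC00963 on chromosome 9 (chr9:129482694-129496971), with 7.26 to 8.22. The third joined SLC16A3, the lactate exporter MCT4, to CCDC57 (chr17:82212687-82229151), with 7.29 to 7.60. The fourth lay near NANOS3 on chromosome 19 (chr19:13842508-13851866), with 7.03 to 7.60, and contains the distal member with 4 AP-1 words whose stretch is printed above. The fifth was the histone gene cluster of H2AC4, H3C1 and H4C2 on chromosome 6 (chr6:26020363-26033656), with 6.87 to 7.16.
With a gap of 50 kb, the largest loci held 8 members each, at ARHGDIA, P4HB, MAFG and their neighbours over 191021 bp and at SUMO2, JPT1 and their neighbours over 159376 bp, both on chromosome 17. The PDP1 locus followed with 7 members over 115532 bp, with mock levels of 6.98 to 8.18, 4 of them over 5 kb from every transcript start. A locus with TUBB, DDR1 and IER3 on chromosome 6 held 6 members, with 6.86 to 7.22. The homeobox cluster from HOXB3 to HOXB9 held 4, with 7.07 to 8.06.

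Lists of genes were then read for the highest peak within 5 kb of any transcript start of each gene. Over all 12400 protein-coding genes with such a peak, 8.06% had a member there. Neighbouring genes can share a peak, so these are counts of genes, not of independent peaks.
Of 16 markers of the colorectal epithelium, 12 had a peak and 2 had a member. These were EPCAM, an adhesion molecule of epithelial cells (7.10 in the mock group and 6.25 after IFN-β), and CLDN7, a claudin of tight junctions (7.05 and 6.38). KRT8, KRT18 and KRT19, the keratins of simple epithelia, had mock levels of 6.66, 6.52 and 6.67, below the lowest member at 6.86. CDX2, a homeobox factor of the intestine, had 5.37. The other markers with a peak were CLDN4 (6.69), ELF3 (5.96), KLF5 (5.62), CDH1 (4.89), EHF (4.85) and CLDN3 (3.25). The median over all peaks was 5.04. HNF4A, CDX1, KRT20 and VIL1 had no peak within 5 kb of a start. The peaks of ELF3, CDH1 and CLDN3 were centred 4978, 4491 and 4721 bp from a start, and the nearest start to the CLDN7 peak was that of ENSG00000262302. Of the other cell types, 2 of 12 fibroblast, 2 of 10 endothelial, 1 of 14 blood, 2 of 10 neural, 1 of 10 muscle and 0 of 10 liver marker genes had a peak, and none had a member. The highest mock levels were 5.40 at SYT1 (neural), 5.24 at COL1A1 (fibroblast), 4.50 at ESAM (endothelial) and 4.06 at RYR1 (muscle), so some exceeded those of colorectal markers. The blood marker was CD68 (6.59), where the peak was centred 44 bp from the start of the neighbouring MPDU1.
Among 22 intestinal and epithelial transcription factors, 16 had a peak and 3 had a member. GRHL2, a factor of epithelial identity, had 7.13 and 6.27, ID1, an inhibitor of basic helix-loop-helix factors, had 7.13 and 6.45, and RUNX1 had 6.96 and 6.21. Of the keratin, junction and adhesion genes, 24 had a peak and 5 a member, with LAMA5, a laminin chain (7.13 and 6.46), ITGB1, an integrin subunit (7.02 and 6.41), and PKP3, a plakophilin of desmosomes (6.98 and 6.25), beside EPCAM and CLDN7.

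The Wnt pathway stabilises β-catenin, which switches on target genes with TCF factors. Of its 15 listed genes with a peak, 4 had a member: TCF7L2, RNF43, a ubiquitin ligase that removes Wnt receptors (7.49 and 6.80), AXIN2, a scaffold of the β-catenin destruction complex (7.43 and 6.24), and CD44, a hyaluronan receptor (6.90 and 5.93). MYC (6.38 in the mock group) and CCND1 (6.74) had a peak below the members, and LGR5 had none. Around MYC, a member at the start of the noncoding gene PVT1 had 6.94 and 6.10.
The RAS-ERK cascade induces AP-1 genes and its own inhibitors. All 29 listed genes had a peak and 8 had a member. FOSL1, which encodes the AP-1 subunit FRA1, was the highest with 7.64 and 6.73, and JUND, another subunit, had 6.96 and 5.98. The inhibitors were DUSP6, a phosphatase of ERK (7.27 and 6.66), SPRY4 (7.20 and 6.63) and SPRED1 (7.15 and 6.37). The EGF family ligand EREG had 7.32 and 6.63, the receptor EPHA2 had 7.03 and 6.65, and the early response gene IER2 had 7.33 and 6.53.
Genes of protein synthesis and RNA processing were also among the members. Of 28 splicing factor and hnRNP genes, 10 had a member, led by SRSF2 (7.94 and 7.10, centred 214 bp from a start of its neighbour MFSD11) and SRSF1 (7.82 and 7.0). Of 20 translation factor and nucleolar genes, 7 did, with EIF3A at 7.53 and 6.78. All 79 cytosolic ribosomal protein genes had a peak and 15 a member, from RPL13 (7.70 and 6.66) to RPL3 (6.87 and 5.88). Among 25 actin and tubulin genes with a peak, 8 had a member, with TUBB4B (7.93 and 6.90) and TUBA1C (7.91 and 7.09) after ACTG1.
The glycolysis genes ENO1 (7.35 and 6.36), ALDOA (7.17 and 6.39) and TPI1 (6.93 and 5.96) were 3 of 17. Of the 22 chaperone genes, 5 had a member, with HSPA9, the mitochondrial HSP70, at 7.24 and 6.34. Of 20 p53 targets, 2 did: BBC3, which encodes the apoptosis activator PUMA (7.34 and 6.54), and GADD45A (7.32 and 6.51). That share, 10.0%, is near the 8.06% of all protein-coding genes with a peak.
Of the genes that write, read or erase histone acetylation, 3 of 22 had a member. They were EP300 (7.87 and 6.89) and CREBBP (6.95 and 6.11), which encode the p300 and CBP acetyltransferases of H3K27, and BRD2, a bromodomain reader (7.80 and 6.89). Of 11 cohesin and CTCF genes, 5 did: STAG1 (7.63 and 6.79), the degron-tagged RAD21 itself (7.57 and 6.46), SMC3 (7.50 and 6.49), CTCF (7.30 and 6.38) and PDS5A (6.87 and 5.92). Of 26 long noncoding RNA genes with a peak, 9 did, with MALAT1 first and NEAT1, the scaffold of paraspeckles, at 7.21 and 6.62. The share over all genes given above covers protein-coding genes only, so there is none to set beside this count. The MIR17HG transcript, host of the miR-17 cluster, had 7.35 and 6.29.
Histone genes by symbol numbered 56 with a peak and 18 with a member, but they shared 33 peaks and 9 members between them. The members' mock levels lay between 6.87 and 7.16. Many histone genes are near-identical copies, so these levels are uncertain.

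**Figure D4:**
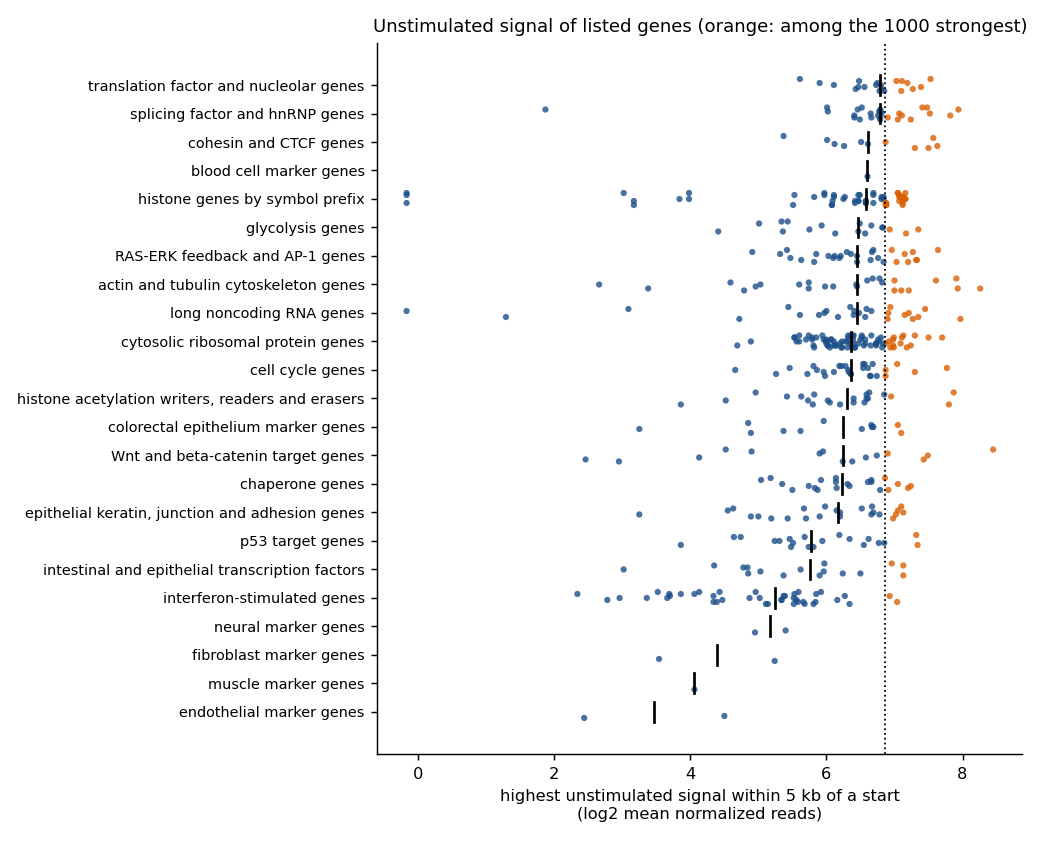
Mock level (log2 mean normalized reads) of the highest peak within 5 kb of a transcript start, one point per gene with such a peak, in each gene list. Black bars are list medians, the dotted line is the lowest member at 6.86, and orange points are genes with a member. The medians run from 3.47 for endothelial markers to 6.79 for splicing and translation factor genes.

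The IFN-β level was lower than the mock level in each of the 1000 members. The difference, IFN-β minus mock, had a median of -0.82 on the log2 scale (SD over peaks 0.19), and ran from -1.48 to -0.04. Over all peaks the median was -0.69, so most of this difference was shared by the whole table, and relative to that shift the members' median was -0.13. In the next 1000 peaks the median difference was -0.81. The lowest level of any peak was -0.17 in the mock group and -0.59 after IFN-β. A peak at both of these levels, such as that at H19, thus differed by -0.42. The part of the read normalization in the shared shift was not tested. None of the members was above 0, where 5.92% of all peaks were, and 153 (15.3%) were below -1, against 17.4% of all peaks. The mock level that chose the members enters the difference, so these counts are only a description.
The distal members differed less than those at starts: the median was -0.67 for the 158 and -0.85 for the 720, and the corresponding medians over all peaks were -0.55 and -0.75. GC content differed between these classes too, and over the 1000 members the difference had a Spearman correlation of -0.415 and a Pearson correlation of -0.457 with GC content. This is given as a description over peaks that share the same 4 libraries and their base composition. Over all peaks the Spearman value was -0.284.

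**Figure D5:**
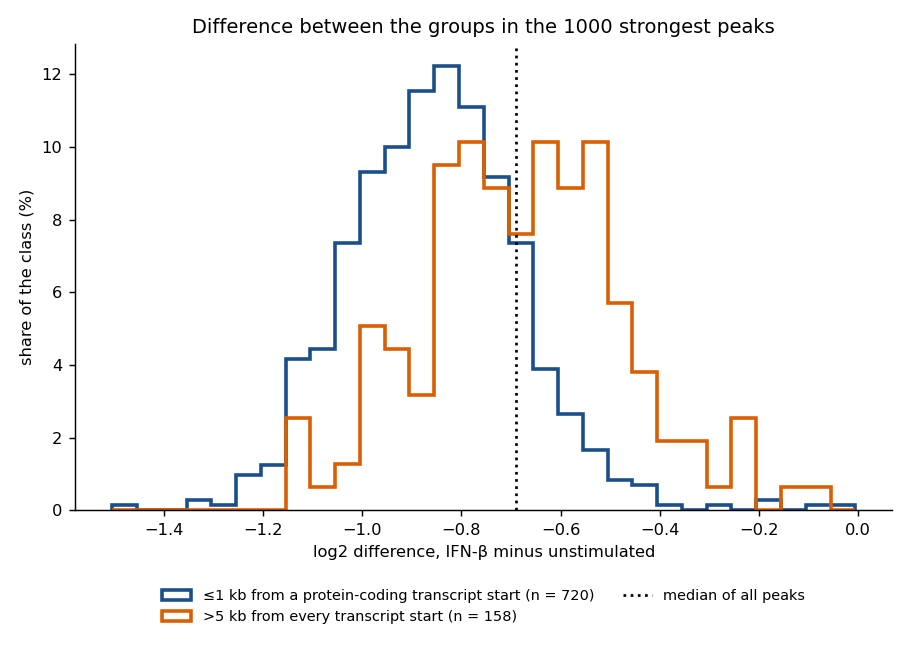
Distribution of the log2 difference, IFN-β minus mock, in members within 1 kb of a protein-coding transcript start (720) and over 5 kb from every transcript start (158), as the share (%) of each class per bin of 0.05, with the 122 other members left out. The dotted line is the median of all peaks at -0.69, and the class medians are -0.85 and -0.67.

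Of the 1000 members, 793 were also among the 1000 highest peaks by IFN-β level, which is 79.3% of either list. The members with the smallest difference were led by a peak 270 bp upstream of a transcript start of DDX60L, a helicase-like gene of the interferon response, with 7.17 in the mock group and 7.13 after IFN-β. It ranked 432nd without IFN-β and 30th with it. TRIM25, a ubiquitin ligase that acts on the RNA sensor RIG-I, had 6.93 and 6.87 and ranked 848th without IFN-β and 95th with it. Similar differences were found at a member 87034 bp from DUSP5 (6.88 and 6.82), one 32738 bp from LVRN (6.94 and 6.82, with 23.1% repeated 31-mers) and one at RBCK1, a subunit of the linear ubiquitin ligase complex (6.95 and 6.75). None of them was above its mock level, while the median difference was -0.69 over all peaks and -0.82 over the members.
The largest differences were at CDKN2D, an inhibitor of CDK4 and CDK6 (7.04 and 5.56), the noncoding gene RENO1 near BAHCC1 (7.61 and 6.27), BIRC5, which encodes survivin (7.30 and 5.98), LMNB1, a nuclear lamin (7.52 and 6.21), and PHACTR4 (6.86 and 5.56). CDKN2D was at rank 3095 by IFN-β level, the lowest reached by any member, and 13 members were beyond rank 2000.
All 5 members of the cell cycle list had a difference below -1, where 15.3% of the members and 17.4% of all peaks did. The list was chosen with earlier results of these data known. The 5 included CDKN2D and BIRC5, both named above for the largest differences. The others were MKI67, the proliferation antigen Ki-67 (7.77 and 6.64), MCM7, a subunit of the replicative helicase (6.87 and 5.81), and TOP2A, a topoisomerase (6.87 and 5.80). The median difference of the 29 genes of this list with a peak was -1.02, against -0.76 for all protein-coding genes with a peak.
Of 42 interferon-stimulated genes with a peak, 2 had a member, TRIM25 and ISG15, a ubiquitin-like modifier (7.04 in the mock group and 6.51 after IFN-β). This is 4.76%, beside 8.06% of all protein-coding genes. The list's mock levels ranged from 2.34 to 7.04 with a median of 5.24, and its median difference was 0.34. The other listed genes with a peak lay below the members, with OASL the lowest at 2.34.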

How the data were processed

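H3K27ac ChIP-seq was measured in 2 mock and 2 IFN-β libraries, with 1 input library. Per the study's methods and the submitters' processing notes, reads were demultiplexed with bcl2fastq 2.17, trimmed with fastp 0.19.3, aligned to GRCh38 with Bowtie2, called as peaks with MACS2 against the input, and merged and counted with DiffBind, which ran DESeq2. The authors deposited, for each peak and group, a log2 value of the mean over libraries of normalized reads. Their columns of fold change, p-value, FDR and overall mean were not used. Depth per library is not in the table, and 0 columns hold values of single libraries, so no SD between libraries could be computed. The authors' p-values were set aside as their own findings, and no test was run here.

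The peaks were ranked by the mock level, with ties by chromosome and start. Peak coordinates are printed as deposited, and their width was taken as end minus start. Sequence windows are printed 1-based. The reference was GRCh38 with GENCODE release 44, and no peak on chromosomes 1 to 22 and X ended beyond its chromosome. The difference is the IFN-β minus the mock level. The limit for a count of 0 is 3 counts of the total. Repeated sequence is the share of the 31-mers within 500 bp of a peak's centre with another copy in the reference.

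Named are the 15 highest members, the 10 highest distal members by either definition, the 5 highest and 5 lowest differences, the 3 last members inside and 3 first peaks outside, the 3 widest, the 5 highest per kb, the 5 largest loci, and members within 5 kb of listed genes. Some items under this rule are not reported here. The loci within 50 kb, the other PCDH7 and VMP1 members, SOCS6, YAP1, PVT1, and listed genes without a member were named after their values were seen. Members and gene lists were chosen with earlier results of these data known. The counting functions were tested on simulated data. Python 3.11.15, numpy 2.4.6, pandas 2.3.3, scipy 1.17.1, numba 0.67.0 and matplotlib 3.10.9 were used.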

Additional observations from a re-analysis of the deposited data

Results flagged for a closer look

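The table also holds 51 peaks on chromosome Y and unplaced sequences, which the comparisons above did not use. Of these, 10 had a mock level above the log2 of 3 counts, which is 1.58, and this is why they are listed here. Their highest mock level was 5.73, so 0 reached the level of the members.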

How the results depend on the processing

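Of 69 alternative values, 42 moved by less than their interval, or for the number of loci by less than 1.5 times, and 27 by more. None changed sign, but only the median difference could. With start sites of every annotated gene the share of members at starts was 67.0% and the distal share 21.9%, with every transcript of protein-coding genes 72.0% and 23.2%, and with every transcript of every gene, an alternative added after seeing the data, 79.2% and 15.8%. Distances of 500 bp and 2.5 kb gave 43.1% and 64.5% at starts, and distances of 2.5 and 10 kb gave 35.5% and 28.7% distal. The 2000 highest peaks gave 61.55% and 28.6%, and ranking by the IFN-β level 50.5% and 37.9%, with a GC content of 64.5% and a median difference of -0.73. For the members as chosen, centring on all peaks changed the median difference from -0.82 to -0.13. Leaving out peaks with repeated sequence, also added later, gave 28.9% distal and a GC content of 67.8%, and a window of 250 bp on either side gave 68.6%. The AP-1 share of distal members was 39.94%, with the smaller window 18.89%, and with every transcript of every gene, also added later, 52.53%. There were 2 loci of 3 or more with the 500 highest peaks and 11 with the 2000 highest, and 1, 22 and 39 with gaps of 5, 25 and 50 kb, the last added later. The cause of these changes was not tested beyond the construction of each alternative. No paired analysis was possible because the table gives levels as group means and no value per library, and for the same reason no library could be left out.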
